A study of Mus musculus with 12 samples.

Results

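The genes described here encode the machinery of RNA polymerases I and III, and their transcript levels were compared between mouse B cell acute lymphoblastic leukemia (B-ALL) cells treated with the GSK3β inhibitor LY2090314 and untreated cells. Members were defined by gene name, as symbols that start with Polr1, Polr3 or Gtf3c together with Taf1a, Taf1b, Taf1c, Taf1d, Rrn3, Ubtf, Brf1, Brf2, Bdp1, Gtf3a and Maf1. The definition uses no measured difference, although it was drawn up with earlier results of these data known. Of these symbols 31 are covered here, of which 30 had a row among the 41444 genes of the table. All 30 had a mean value of at least 3 and were among the 11536 genes tested. The remaining symbol, Gtf3c2, was not analysed here.

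RNA polymerase I transcribes the repeated ribosomal DNA genes in the nucleolus and gives the precursor of the large ribosomal RNAs. RNA polymerase III makes tRNAs, 5S ribosomal RNA and other short non-coding RNAs. Each enzyme needs its own initiation factors, and both share several small subunits with each other or with RNA polymerase II, which transcribes protein-coding genes. Output of both enzymes follows cell growth, is raised by Myc and mTOR signalling and is held down by Maf1, the retinoblastoma proteins and p53. GSK3β is part of the complex that marks β-catenin for degradation.

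The cells were pre-B cells from the bone marrow of Ctnnb1 fl/fl mice, transformed with BCR-ABL1. Both groups carried the ERT2 vector without Cre, so that β-catenin was left intact, and both received 1 µM 4-OHT for 2 days. The control group, with 3 samples, received no inhibitor, and the treated group, also with 3 samples, received 40 nM LY2090314 for 1 day according to the sample labels, whereas a figure legend of the study gives a shorter exposure. The comparison asks which transcripts differ when GSK3β is inhibited in cells that can accumulate β-catenin. Expression was measured by RNA-seq of polyadenylated RNA and is given as regularized log2 (rlog) values, in which counts are scaled to the library and genes with few reads are drawn towards their own mean. The values are relative to each library, the depth of the libraries is unknown, and fewer cells and less RNA per cell cannot be told apart. Samples are numbered within their group in the order of their columns, and the numbers are names only.

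The samples of a group are described in the study as biological replicates from separate mice. Treated samples 1 and 2 share a library number in their column names, and if they came from the same culture the spread between them is technical. The SD of the difference between 2 samples over all tested genes was 0.186 for this pair, 0.253 for both other pairs of treated samples, 0.185 to 0.239 for the 3 pairs of control samples and at least 0.581 between samples of different groups. Over the members, the same SD was 0.114 for this pair, 0.224 and 0.240 for the other treated pairs, 0.114 to 0.187 for the control pairs and 0.301 to 0.375 between groups. All 10 B lineage markers examined had a mean of at least 3, with gene means of 7.77 to 14.05 in control and 5.84 to 14.28 in treated samples, and 8 of them were lower and 1 higher with LY2090314. None of 5 T cell and none of 4 stromal markers reached a mean of 3, against 1 of 5 myeloid markers (Lyz2, 5.80 in control and 6.34 in treated samples) and 1 of 4 erythroid markers (Hbb-bt, 3.74 and 3.29). Mpo, Elane, Hba-a1, Col1a2 and Cxcl12 were listed at 0 in all 6 samples. The part of the shift in B lineage, myeloid and erythroid markers in the differences described below was not tested.

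Before the values, the sequences just upstream of 4 subunit genes are shown, since these were the member subunit genes with the largest differences. They are RefSeq sequences of GRCm38.p6, written 5′ to 3′ on the strand of the gene and ending at the base before the annotated gene. The capitals in Polr1b mark TTCCCA, the reverse complement of TGGGAA, a site of Ikaros proteins that extends their shorter core GGGAA by a base. The Polr1e stretch holds the shorter core once, in small letters. Those of Polr1a and Polr3b hold neither form, and none of the 4 stretches holds an E-box or the TCF core described below. The windows are chr2:129100896-129100994 for Polr1b, chr4:45018509-45018582 for Polr1e, chr6:71908953-71909052 for Polr1a and chr10:84622198-84622291 for Polr3b, all on the plus strand.
Polr1b: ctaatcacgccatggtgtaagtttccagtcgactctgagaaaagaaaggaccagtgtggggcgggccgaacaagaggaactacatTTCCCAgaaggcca
Polr1e: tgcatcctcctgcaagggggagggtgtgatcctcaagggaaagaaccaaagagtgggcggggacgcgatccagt
Polr1a: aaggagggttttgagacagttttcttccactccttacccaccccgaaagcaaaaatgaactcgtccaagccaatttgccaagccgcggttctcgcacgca
Polr3b: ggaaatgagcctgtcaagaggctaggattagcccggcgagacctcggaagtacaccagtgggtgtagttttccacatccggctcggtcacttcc

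The E-box CACGTG, the site to which Myc binds together with Max, was found upstream of the start site in Rrn3, Polr3gl, Polr3c and Gtf3c6. The stretches outside the annotated gene are shown because Myc itself fell in these cells. None of these genes passed the threshold used below. Their differences were −0.06 for Rrn3, −0.05 for Polr3gl, 0.07 for Polr3c and −0.21 for Gtf3c6. Whether Myc acts on them was not tested. Capitals mark the E-box. Rrn3 held a pair of them, in chr16:13780464-13780509 and chr16:13780631-13780676 on the plus strand. Polr3gl held it in chr3:96594350-96594395 and Polr3c in chr3:96727651-96727689, both on the minus strand. In Gtf3c6 the E-box begins at position −56 or −206 from the start, depending on which of its RefSeq starts is taken, and lies within the annotated gene, so it is not shown.
Rrn3 distal: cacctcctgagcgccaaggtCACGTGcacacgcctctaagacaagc
Rrn3 proximal: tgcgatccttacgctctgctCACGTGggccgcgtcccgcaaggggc
Polr3gl: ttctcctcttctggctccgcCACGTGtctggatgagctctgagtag
Polr3c: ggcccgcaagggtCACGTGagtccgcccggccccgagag

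Of the 30 members, 6 were lower with LY2090314 (Polr1a, Polr1b, Polr1e, Ubtf, Gtf3a and Polr3e), 2 were higher (Polr3b and Polr3k) and 22 did not pass the test (limma over all 11536 genes, adjusted p under 0.05). The members called in either direction made up 26.7%, against 50.1% of all genes tested. Lower members made up 20.0%, against 25.3% of all genes, and higher members 6.67%, against 24.8%. The control and treated samples did not overlap in 10 of 30 members, or 33.3%, against 58.6% of all genes. The median difference of the members was −0.05 on the log2 scale and that of all genes 0.01, and the median size of the difference irrespective of sign was 0.12 for the members and 0.24 for all genes. These shares lie below the background, and the differences past the threshold sat in a few members.

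**Figure D1:**
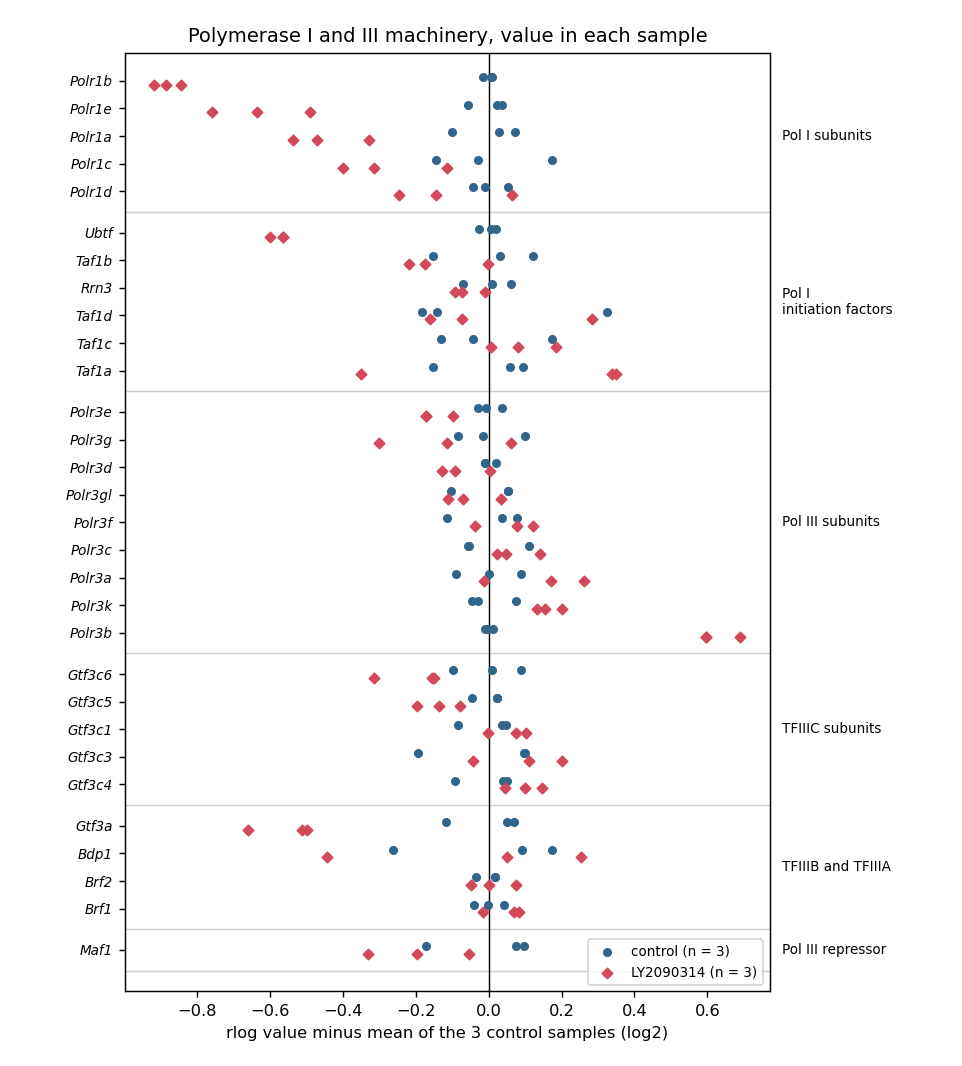
The rlog value of each of the 30 members in each sample, minus the mean of the 3 control samples, on the log2 scale. Circles are the 3 control samples and diamonds the 3 LY2090314-treated samples, and members are sorted within their role. Polr1b, Polr1e, Polr1a, Ubtf and Gtf3a lie to the left and Polr3b to the right of all control samples, while for most TFIIIC, TFIIIB and TAF genes both groups overlap around 0.

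The polymerase I subunits stood lower in treated cells, with all 5 differences below 0 (median −0.45). Past the threshold, 3 of 5 were lower (60%, against 25.3% of all genes). Polr1b encodes the second largest subunit, which forms the active centre of the enzyme together with the largest one. Its rlog value was 11.01, 10.98 and 11.00 in the control samples and 10.15, 10.08 and 10.11 in the treated samples. The groups were far apart for a gene with so little spread within either of them. Polr1b (ENSMUSG00000027395, chromosome 2, 129100995 to 129126594) fell by 0.88 (log2, standard error 0.045, limma adjusted p = 2.8e-06), a 1.84-fold lower level, and 2.64% of all genes tested had a difference as low. Polr1e (ENSMUSG00000028318, chromosome 4, 45018583 to 45036565) encodes a subunit of the mobile heterodimer that helps the enzyme start and elongate. Its values were 9.24, 9.14 and 9.22 in control and 8.56, 8.44 and 8.71 in treated samples, so that the highest treated sample lay below every control sample. Polr1e fell by 0.63 (standard error 0.081, adjusted p = 4.2e-04 from limma). Polr1a (ENSMUSG00000049553, chromosome 6, 71909053 to 71984935), the gene of the largest and catalytic subunit, had values of 10.61, 10.65 and 10.48 in control and 10.04, 10.25 and 10.11 in treated samples. These groups did not overlap either, and Polr1a fell by 0.45 (standard error 0.072, adjusted p = 0.0014 from limma). An exon of Polr1a overlaps Gm26628 on the other strand, and whether the authors' counting used strand is not stated.

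The other members of this group, Polr1c and Polr1d, encode the pair of assembly subunits that polymerases I and III share. Polr1c was at 9.69, 9.80 and 10.00 in control and 9.52, 9.43 and 9.71 in treated samples. The highest treated sample lay above the lowest control sample, and the difference of −0.28 missed the threshold (adjusted p = 0.052 from limma, 95% interval −0.51 to −0.04). Polr1c passed in 6 of the 14 alternative settings, among them without control sample 1 (adjusted p = 0.035 from limma) and without treated sample 3 (adjusted p = 0.017). Polr1d differed by −0.11 (95% interval −0.29 to 0.08) and passed only when treated sample 3 was left out, alone (adjusted p = 0.019 from limma) or with control sample 3.

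The remaining polymerase I subunits carry older symbols in the table and so fall outside the naming rule. Cd3eap encodes the partner of the Polr1e protein in the mobile heterodimer. It was at 9.49, 9.44 and 9.50 in control and 9.09, 9.12 and 9.08 in treated samples, a fall of 0.38 with little spread in either group (adjusted p = 6.3e-04 from limma). An exon of Cd3eap overlaps Ercc1 on the other strand. Znrd1, the gene of the small subunit that cleaves the nascent RNA, fell by 0.27 (adjusted p = 0.0081 from limma) and Twistnb, the gene of the stalk subunit, by 0.19 (adjusted p = 0.012). With these 3 genes counted in, 6 of 8 polymerase I subunits were lower (75%, against 25.3% of all genes) and none was higher. The median difference was −0.33. This list was drawn up with earlier results of these data known and was not tested as a list.

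Of the 6 polymerase I initiation factors 1, Ubtf, was lower with LY2090314 (16.7%, against 25.3% of all genes), and 5 of 6 did not pass. Ubtf (ENSMUSG00000020923, chromosome 11, 102304560 to 102319742) encodes the upstream binding factor, which coats active ribosomal DNA and opens its chromatin. Its values were 12.47, 12.46 and 12.43 in control and 11.89, 11.89 and 11.85 in treated samples. Within each group the samples lay closer together than for most members, and Ubtf fell by 0.58 (standard error 0.042, adjusted p = 2.1e-05 from limma), a 1.49-fold lower level. Rrn3 encodes the factor that links polymerase I to its promoter and through which growth signals act. It was at 10.88, 10.82 and 10.75 in control and 10.74, 10.81 and 10.72 in treated samples, and these ranges overlapped. The difference of Rrn3 was −0.06, with a 95% interval of −0.18 to 0.06, so that a fall of the size seen for Ubtf lies outside the interval. Taf1a, Taf1b, Taf1c and Taf1d encode the subunits that together with the TATA-binding protein form SL1, the factor that recognises the ribosomal DNA promoter. Their differences were 0.11 for Taf1a, −0.13 for Taf1b, 0.09 for Taf1c and 0.02 for Taf1d, none past the threshold. For Taf1a and Taf1d the spread within a group was wide, with SDs of up to 0.40 and 0.28, and the table cannot show a small difference in either. Taf1a passed as higher when treated sample 3 was left out (0.34, adjusted p = 0.033 from limma), the sample that lay lowest for this gene. Exons of Taf1d overlap 10 small genes on the same strand and 2 genes on the other strand, so its value is uncertain.

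**Figure D2:**
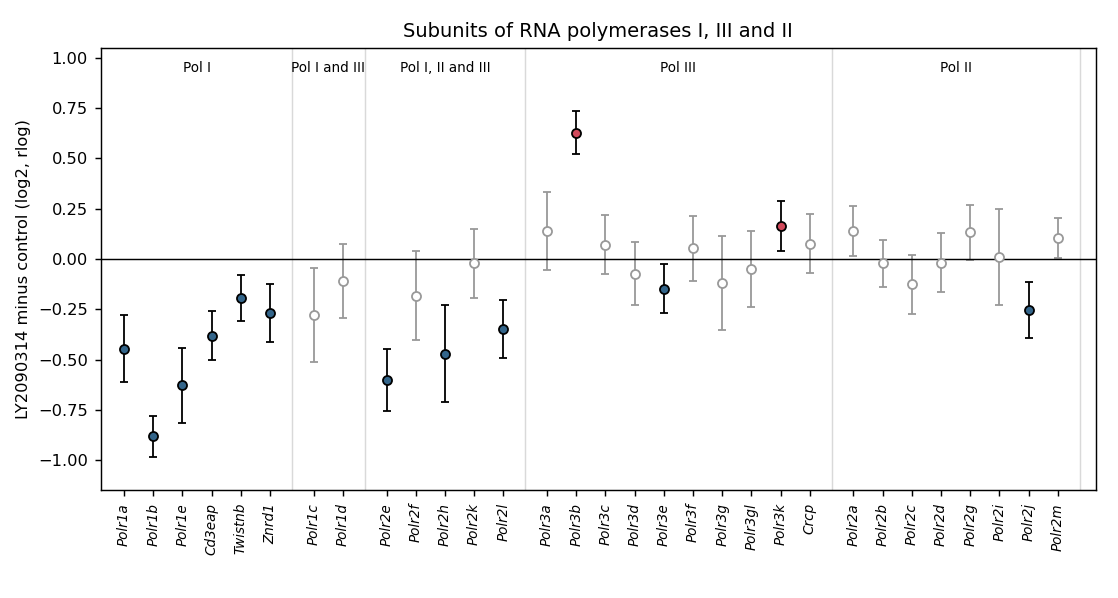
Difference between LY2090314-treated and control samples in the log2 rlog value of each subunit gene of RNA polymerases I, III and II, with its 95% confidence interval from limma (3 samples against 3). Filled points passed an adjusted p of 0.05 over all genes and open points did not. All 6 genes particular to polymerase I lie below 0, from −0.88 for Polr1b to −0.19 for Twistnb, whereas genes particular to polymerase III lie on both sides.

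Of the polymerase III subunits 1 of 9 was lower, 2 of 9 were higher and 6 did not pass, against 25.3% lower and 24.8% higher over all genes, and the median difference was 0.05. Polr3b (ENSMUSG00000034453, chromosome 10, 84622292 to 84727178) encodes the second largest subunit, the counterpart of the Polr1b product. Its values were 11.45, 11.44 and 11.43 in control and 12.03, 12.03 and 12.13 in treated samples. Every treated sample lay above every control sample, and Polr3b rose by 0.63 (standard error 0.046, adjusted p = 2.1e-05 from limma), a 1.54-fold higher level. The genes of the equivalent subunits of polymerases I and III thus changed in opposite directions, Polr1b down and Polr3b up. An exon of Polr3b overlaps Gm17249 on the other strand. Polr3a, the gene of the largest subunit, had a difference of 0.14 (95% interval −0.06 to 0.33) and did not pass, except as higher without treated sample 3 (0.22, adjusted p = 0.038 from limma).

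The other calls among the polymerase III subunits were small. Polr3k, the gene of the subunit that cleaves RNA and serves termination, was at 10.00, 9.89 and 9.88 in control and 10.06, 10.08 and 10.12 in treated samples. The groups did not overlap, but the distance between the nearest samples was small, and Polr3k rose by 0.16 (adjusted p = 0.037 from limma). Polr3e, which encodes part of a subcomplex similar to the initiation factor TFIIF, was at 9.67, 9.62 and 9.60 in control and 9.46, 9.53 and 9.46 in treated samples and fell by 0.15 (adjusted p = 0.049 from limma). Polr3e passed in none of the 6 fits that left out 1 sample (adjusted p of 0.064 to 0.14), and Polr3k passed in 1 of these 6, the fit without control sample 1 (adjusted p of 0.029 to 0.12). The partner of the Polr3e product is encoded by Polr3d, which differed by −0.07, and the initiation subcomplex by Polr3c (0.07), Polr3f (0.05) and either Polr3g or Polr3gl. None of these passed.

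**Figure D3:**
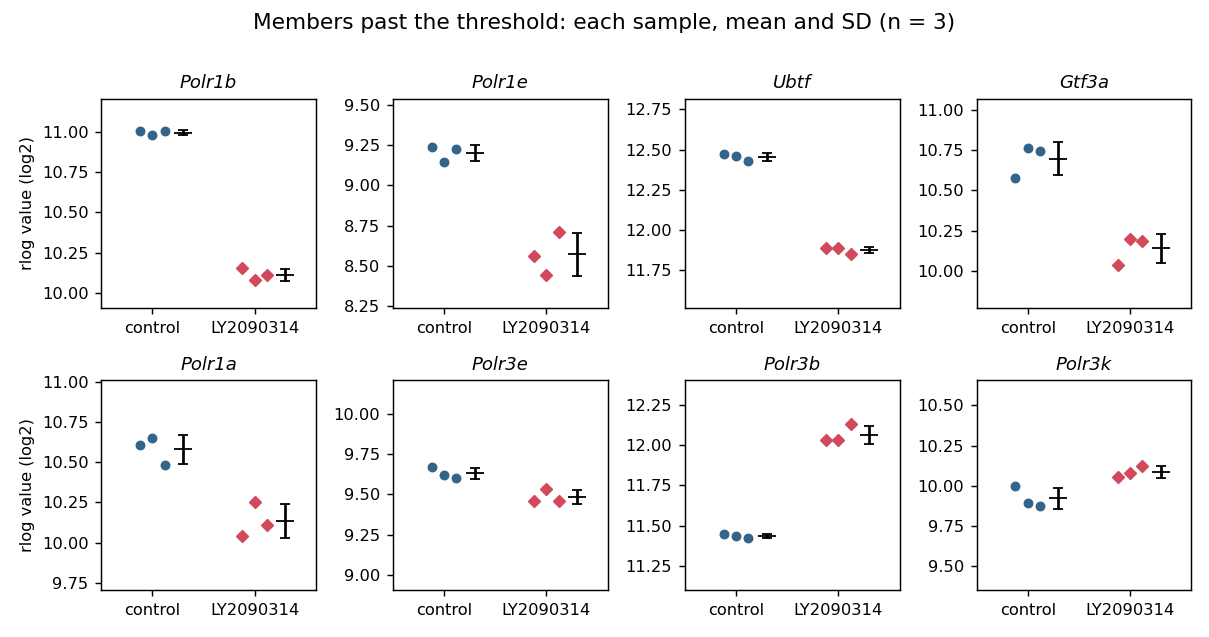
The rlog value (log2) of the 8 members past the threshold in each control sample (circles) and each LY2090314-treated sample (diamonds), with the group mean (long bar) and SD (n = 3). The panels have different ranges but the same height in log2 units, so that distances can be compared, and the axes do not start at 0. The groups are widely separated for Polr1b, Ubtf and Polr3b and nearly touch for Polr3e and Polr3k.

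Alternative genes exist for a pair of polymerase III components. Polr3g and Polr3gl encode alternative forms of the same subunit, the former known from pluripotent and tumour cells and the latter from most tissues. Polr3g was at 8.92, 8.80 and 8.73 in control and 8.70, 8.52 and 8.88 in treated samples, and Polr3gl at 8.16, 8.01 and 8.16 in control and 8.0, 8.15 and 8.04 in treated samples. Both pairs of ranges overlapped, with differences of −0.12 for Polr3g and −0.05 for Polr3gl. The within-sample difference, Polr3g minus Polr3gl, was 0.71 ± 0.12 (SD, n = 3) in control and 0.64 ± 0.24 (SD, n = 3) in treated samples (exact two-sided permutation p = 0.70, where the smallest possible p is 0.10). Without treated sample 2 the shift between groups was 0.06 instead of −0.07, so that its direction rests on that sample. Brf1 and Brf2 encode alternative TFIIIB subunits, Brf1 for tRNA and 5S RNA genes and Brf2 for genes with upstream promoters such as that of U6 RNA. Brf1 was at 9.61, 9.57 and 9.66 in control and 9.60, 9.70 and 9.68 in treated samples, and Brf2 at 7.87, 7.81 and 7.87 in control and 7.80, 7.85 and 7.92 in treated samples. Brf1 minus Brf2 was 1.77 ± 0.023 (SD, n = 3) in control and 1.80 ± 0.044 (SD, n = 3) in treated samples (exact two-sided permutation p = 0.30). Since this test cannot pass 0.05 with 3 samples per group, it does not settle whether the balance of either pair shifted. Exons of Brf1 overlap 9230104M06Rik, exons of Brf2 overlap Adgra2 and exons of Polr3gl overlap Gm16253, each on the other strand.

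Of the 9 tested genes for factors that bring polymerase III to its genes, 1, Gtf3a, was lower (11.1%, against 25.3% of all genes). Gtf3a (ENSMUSG00000016503, chromosome 5, 146948657 to 146955614) encodes TFIIIA, a zinc finger protein that serves the 5S RNA genes alone. Its values were 10.58, 10.77 and 10.75 in control and 10.04, 10.20 and 10.18 in treated samples, without overlap. Gtf3a fell by 0.56 (standard error 0.070, adjusted p = 3.9e-04 from limma), a 1.47-fold lower level, and an exon of it overlaps Mtif3 on the other strand. None of the 5 TFIIIC genes tested, which encode the complex that binds the internal promoters of tRNA genes, passed. Their differences were 0.06 for Gtf3c1, 0.09 for Gtf3c3, 0.10 for Gtf3c4, −0.14 for Gtf3c5 and −0.21 for Gtf3c6, and the lowest 95% limit among them was −0.42, for Gtf3c6. Gtf3c5 and Gtf3c6 did not overlap between groups although they missed the threshold (adjusted p = 0.066 and 0.092 from limma).

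Bdp1, which encodes the TFIIIB subunit common to all polymerase III promoters, was at 10.53, 10.45 and 10.10 in control and 10.41, 10.61 and 9.92 in treated samples. In both groups sample 3 was the lowest, and the difference between groups of −0.05 had a 95% interval of −0.47 to 0.38. Maf1, the repressor of polymerase III that acts by binding the enzyme, was at 10.72, 10.97 and 10.99 in control and 10.84, 10.57 and 10.70 in treated samples. These ranges overlapped and the difference of −0.19 did not pass (adjusted p = 0.12 from limma, 95% interval −0.41 to 0.02). Maf1 passed as lower in a single alternative fit, without control sample 1 (−0.28, adjusted p = 0.036 from limma).

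In the members, which are not replicates, the third control and the third treated sample often departed from their group means in the same direction. This was not counted over all genes. Both samples lay on the same side of their group mean in 22 of 30 members. Each was the sample farthest from that mean in more members than any other of its group, 14 and 16 of 30. Bdp1 and Taf1a were lowest in both of these samples and Taf1d was highest in both. With both samples left out, an alternative chosen after seeing the data, 8 members were lower and 1 was higher. Polr1c, Polr1d and Gtf3c5 then passed as lower, and Polr3e and Polr3k no longer passed. Polr1a, Polr1b, Polr1e, Ubtf, Gtf3a and Polr3b passed in the same direction in each of the 14 alternative settings that were tried.

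The table of RefSeq promoters used here, from 250 bases before to 50 after the start, has an entry for 25 of the 30 members. The members without an entry in it are Brf1, Brf2, Maf1, Polr3a and Polr3d. The E-box CACGTG, which reads the same on both strands, was present in 5 of the 25 (20.0%), in 12.2% of the genes tested that have a promoter and in 8.09% of all genes with a promoter. Of the 6 lower members 1 held it, Polr3e, and of the 17 members without a call 4 held it, namely Rrn3, Polr3gl, Polr3c and Gtf3c6. The TCF core CTTTGAT was found on neither strand in any of the 25, against 2.95% of the tested genes. The Ikaros site TGGGAA was found on either strand in 10 of 25 members (40.0%) and in 25.9% of the tested genes. Lower members held it in 2 of 6 cases, Polr1b (shown above) and Ubtf, and members without a call in 7 of 17. For every motif, a gene was counted if any of its RefSeq promoters held it. Polr1b has 1 promoter and Ubtf has 6, and the Ubtf site lies only in that at chr11:102320813-102321112. With the shorter core GGGAA, chosen after seeing the data, the motif was found in 16 of the 25 members and in 68.5% of the tested genes. None of the first 3 motifs contains another. A match gives the letters only and does not show that a factor binds there.

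Genes around the machinery were counted from lists drawn up with earlier results of these data known, each read from the same fit. Of the 9 subunit genes that are shared between polymerases or carry older symbols, 6 were lower (66.7%, against 25.3% of all genes) and none higher. Among these 6, Cd3eap, Znrd1 and Twistnb were already counted above with the polymerase I subunits. The others were Polr2e, Polr2h and Polr2l. Polr2e, which encodes a subunit common to polymerases I, II and III, was at 9.42, 9.48 and 9.58 in control and 8.86, 8.86 and 8.96 in treated samples and fell by 0.60 (adjusted p = 1.9e-04 from limma). This was the largest fall of that list, and the groups did not overlap. Of 8 subunit genes particular to polymerase II 1 was lower (12.5%, against 25.3% of all genes) and none higher. The median difference was 0.00. The gene that fell, Polr2j, fell by 0.25 (adjusted p = 0.0088 from limma). In the plot of polymerase subunits, genes of polymerase I and of the shared subunits lie mostly below 0, and those of polymerase II close to it. The difference between these lists was not tested. Polr2f was listed at 3.62 to 4.01 in all samples, low for a subunit of every polymerase, and its value is uncertain.

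Nucleolar regulators of ribosomal DNA were lower in 8 of 14 genes (57.1%, against 25.3% of all genes) and higher in 3, with a median of −0.28. Ncl, the gene of nucleolin and the largest fall among them, was at 16.13, 16.06 and 16.12 in control and 15.12, 15.14 and 15.26 in treated samples and fell by 0.93 (adjusted p = 4.7e-05 from limma). Exons of Ncl overlap 3 genes on the same strand, Gm24148, Snora75 and mmu-mir-3535, so its value is uncertain. Ttf1, which encodes the terminator of polymerase I, rose by 0.47 (adjusted p = 0.0083 from limma), from 9.14, 9.28 and 9.08 to 9.87, 9.62 and 9.45. Nolc1, which had no call, was listed at 3.07 to 3.29 in all samples, close to the limit of 3 on the mean, and its value is uncertain. The genes that bind or process small RNAs were lower in 7 of 13 (53.8%, against the same 25.3%) and higher in none, with a median of −0.32. Among them Pop1, a protein subunit of RNase P, fell by 0.66 (adjusted p = 6.6e-05 from limma), from 9.97, 9.95 and 10.09 to 9.40, 9.31 and 9.34. Of 8 genes for SNAPc and other factors of upstream polymerase III promoters, 1 was higher (12.5%, against 24.8% of all genes) and none lower. This was Snapc3, a core subunit of SNAPc, which rose by 0.79 (adjusted p = 6.7e-05 from limma), from 7.52, 7.47 and 7.57 to 8.34, 8.32 and 8.26. An exon of Snapc3 overlaps Psip1 on the other strand.

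**Figure D4:**
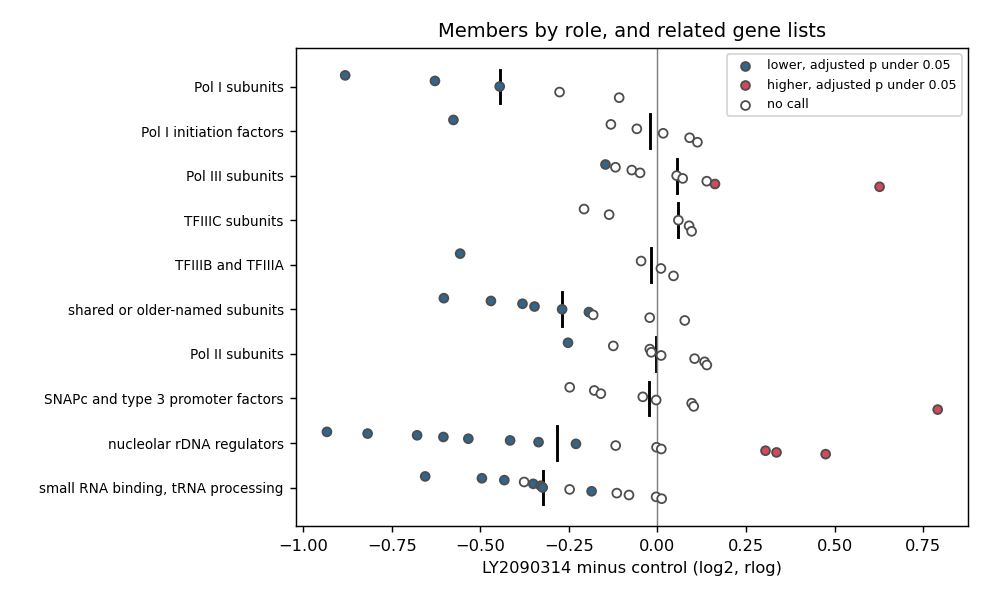
Difference between LY2090314-treated and control samples in log2 rlog value, 1 point per gene, for the members by role, Maf1 aside, and for 5 of the related lists. Filled points passed an adjusted p of 0.05 in limma over all genes, and the bars mark the list medians. The medians are −0.45 for polymerase I subunits, 0.05 for polymerase III subunits and −0.28 for nucleolar regulators of ribosomal DNA.

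Growth signalling genes and tumour suppressors were lower in 3, higher in 3 and without a call in 7 of 13 genes, and the 46.2% called lies near the 50.1% of all genes. Myc was at 11.84, 11.77 and 11.76 in control and 9.15, 9.17 and 9.13 in treated samples. The groups lay far apart, and Myc fell by 2.64 (log2, standard error 0.046, limma adjusted p = 1.9e-08). Cdkn2a, a tumour suppressor gene, rose by 1.14 (adjusted p = 4.1e-06 from limma), from 8.14, 8.12 and 8.05 to 9.27, 9.27 and 9.20. The other higher genes were Mtor, by 0.68 (adjusted p = 4.3e-05 from limma), and Rps6kb1, by 0.92 (adjusted p = 2.0e-06). The other lower genes were Rb1, by 0.41 (adjusted p = 0.0039 from limma), and Trp53, by 0.19 (adjusted p = 0.012). Of the RNAs that these polymerases make, 7 of 10 symbols had a row and 3 reached a mean of 3. Selection of polyadenylated RNA does not aim at these RNAs, so their values say little about their synthesis. Rn7sk rose by 0.70 (adjusted p = 0.035 from limma) and Rpph1 fell by 0.43 (adjusted p = 0.020), and each lost its call in 6 of the 14 alternative settings. Rpph1 overlaps an exon of Ccnb1ip1 on the same strand, so its value is uncertain. With 1 sample left out the rise of Rn7sk was between 0.43, without control sample 1, and 0.92, without control sample 3.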

How the data were processed

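RNA-seq of BCR-ABL1 transformed Ctnnb1 fl/fl B-ALL cells was deposited for 4 groups of 3 samples. Transcript quantification with Salmon and alignment to GRCm38 with STAR were done by the authors, who deposited one table of log2 values, named as rlog, after quality control by FastQC 0.11.9, SAMtools 1.7 and Picard 2.23.8 and analysis with DESeq2 1.30.1. The rlog shrinkage understates differences of genes with few reads, and the depth per sample is unknown, since the table holds no counts. Columns were matched to groups by name. The 6 columns whose names combine Cre and LY were not used.

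A limit of 3 on the mean of the 6 samples left 11536 of 41444 genes, whose group means were fitted with limma 3.58.1 under R 4.3.3 (mean-variance trend, Benjamini-Hochberg adjustment over all genes, threshold 0.05). The paralog pairs were compared by an exact permutation test. The calculations were tested on simulated data with 200 changed genes among 11536. Changes of 1 (log2) were recovered in 95% of cases and changes of 0.5 in 60%. Far more genes were called in the measured data, so these shares need not hold there. The members and all gene lists were chosen with earlier results of these data known.

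One gene that the naming rule takes in is not reported here, and it is left out of all counts of members. All other members are named. Each sample's value is given for the lower members with the largest falls, the higher members, both paralog pairs, Rrn3, Ubtf, Brf1, Brf2, Bdp1, Gtf3a and Maf1. From each related list the largest rise and fall past the threshold and Myc were taken. Values of Polr1a, Polr1c, Polr3e, Cd3eap, Znrd1, Twistnb, Polr2f, Mtor, Rps6kb1, Rb1 and Trp53 were added after they had been seen. Gene positions are from GENCODE vM21 and promoters from RefSeq GRCm38.p6, both of the build used by the authors. The motif search used TGGGAA and, as an alternative chosen after seeing the data, GGGAA. The alternatives were a fit without the trend, no limit or a limit of 5 on the mean, median centring, quantile normalization, leaving out each sample, counting the treated samples with a shared library number as 1, a threshold of 0.01 and leaving out control sample 3 together with treated sample 3.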

Additional observations from a re-analysis of the deposited data

How the results depend on the processing

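The lower members Polr1a, Polr1b, Polr1e, Ubtf and Gtf3a and the higher member Polr3b passed in the same direction in each of the 14 alternative settings. The number of lower members, 6, was 5 to 9 over these settings, and 5 to 8 with 1 sample left out. The number of higher members, 2, was 1 without the mean-variance trend, 1 with median centring, 1 with quantile normalization, 1 with the treated samples of a shared library number counted as 1, 1 with a threshold of 0.01 and 1 with control sample 3 and treated sample 3 both left out (chosen after seeing the data). With 1 sample left out it was 1 to 3, being 1 without control sample 2, control sample 3, treated sample 1 or treated sample 2 and 3 without treated sample 3. The gene that dropped out was Polr3k in each case, and the cause was not tested.

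The median of the members, −0.05, was −0.080 with median centring and −0.085 with quantile normalization, which shift the median of all genes by −0.03 and −0.05, and −0.074 to −0.044 with 1 sample left out. The shift of Brf1 minus Brf2, 0.04, was 0.072 with quantile normalization and 0.013 to 0.056 with 1 sample left out, and that of Polr3g minus Polr3gl −0.17 to 0.06. Of differences without a call, Brf2 turned negative with median centring (−0.017), quantile normalization (−0.065) and without both samples numbered 3 (−0.015), and Taf1d with median centring (−0.010) and quantile normalization (−0.011). Taf1a was at −0.0028 with the shared library number counted as 1, and without both samples numbered 3 Bdp1 was at 0.020 and Gtf3c3 at −0.064. With 1 sample left out, the sign also changed for Bdp1 (−0.20 to 0.15), Taf1d (−0.12 to 0.18), Brf2 (−0.024 to 0.039), Polr3f (−0.0028 to 0.10), Gtf3c3 (−0.0083 to 0.16) and Taf1a (−0.0059 to 0.34).

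Over all genes, 4741 to 6225 passed with 1 sample left out, against 5778. With quantile normalization 43.4% of the genes called were higher, against 49.5%. No paired analysis was possible because the names of the control and treated columns share no number. The study describes cells from 3 mice with and without the inhibitor, so both groups may come from the same mice. The fits treated all samples as independent. With 3 samples per group, the differences without a call may have any size within their intervals.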
